A study of Mus musculus with 2 samples.

Results

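The Krüppel-like factor (Klf) family was examined in mouse epiblast stem cells (EpiSC), pluripotent lines that correspond to the epiblast after implantation. The members were 10 genes chosen by name, namely Klf2, Klf3, Klf4, Klf5, Klf6, Klf7, Klf9, Klf10, Klf12 and Klf13, out of 22755 named genes on the array. All non-control probes that carry these names were kept, which gave 12 of 39413 probes with a value. Each of 8 genes had 1 probe, and Klf9 and Klf13 had 2 probes each. The cells were EpiSC clone 1 and EpiSC clone 2, both at passage 9, wildtype, labelled female and of C57BL/6 genetic background, with no treatment other than trypsin at collection. Each clone was measured once, on a 1-colour Agilent array, so a difference between clones has no replicate check and no test. The design text relates these lines to EpiSC described by other laboratories, and embryonic stem cells were not measured beside them.

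Klf proteins are transcription factors that bind CACCC boxes and GC-rich sites through a row of zinc fingers at the carboxyl end, and their amino-terminal parts recruit either coactivators or corepressors. In embryonic stem cells Klf2, Klf4 and Klf5 help to hold the naive state, with Klf4 acting below LIF and STAT3. Primed cells such as EpiSC are known for low levels of these naive factors, and forced expression of Klf2 or Klf4 can return EpiSC to a naive state. Klf3 and Klf12 repress genes with CtBP corepressors. Klf9, Klf10 and Klf13 can repress through Sin3 corepressors.

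At least 3 of the probes lie partly or wholly in zinc finger codons, and the sequences of these 3 are shown because this is the part that family members share. The probe of Klf5 maps to chr14:99702656-99712388 in mm9. A probe of 60 bases that covers 9733 bp of genome crosses a splice junction. It reads the codons of a zinc finger and of the linker that follows it. The first Klf13 probe, at chr7:71082854-71082913, reads codons of the same kind of finger. Among 66 pairs of member probes compared without gaps, this pair had the most identical bases, 29 of 40 overlapping, with a longest identical run of 8. The next pair had 25. Capitals mark the identical bases:
Klf5 probe: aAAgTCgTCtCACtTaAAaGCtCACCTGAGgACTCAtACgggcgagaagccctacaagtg
Klf13 probe: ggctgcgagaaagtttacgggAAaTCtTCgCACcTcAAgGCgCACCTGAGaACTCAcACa
The Klf7 probe, at chr1:64082265-64082324, reads the end of a zinc finger and then a stop codon, marked in capitals, and 22 bases beyond it:
Klf7 probe: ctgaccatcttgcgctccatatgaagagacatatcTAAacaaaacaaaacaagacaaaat
The search sought only a pattern of the histidine part of a finger, and it was not found in any frame of the other 9 probes. Finger codons of another form could not be seen in this way. Whether the 9 probes lie in coding or untranslated exon sequence was not analysed here.

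In both clones every one of the 10 genes had a probe that the scanner software called well above background. The spot of Klf7 in clone 2 carried an outlier flag for uneven pixels and was left out, so 9 of 10 genes were detected on both arrays by unflagged spots, beside 61.3% of all named genes. Of the 11 Klf probes with unflagged spots on both arrays 10 were detected on both, beside 54.7% of all such probes. The exception was the second probe of Klf9. The members were chosen with earlier results of these data known, so neither share is an independent result about the family. Of 7 other Klf genes 3 were detected on both arrays. Signals are given in array units with the error that the software assigns to a single spot. Probes differ in how well they bind, so the level of one probe is not set against that of another. The plot of signals by clone shows all 12 probes, with the Klf9 second probe near the negative control spots and the other 11 well above them.

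**Figure D1:**
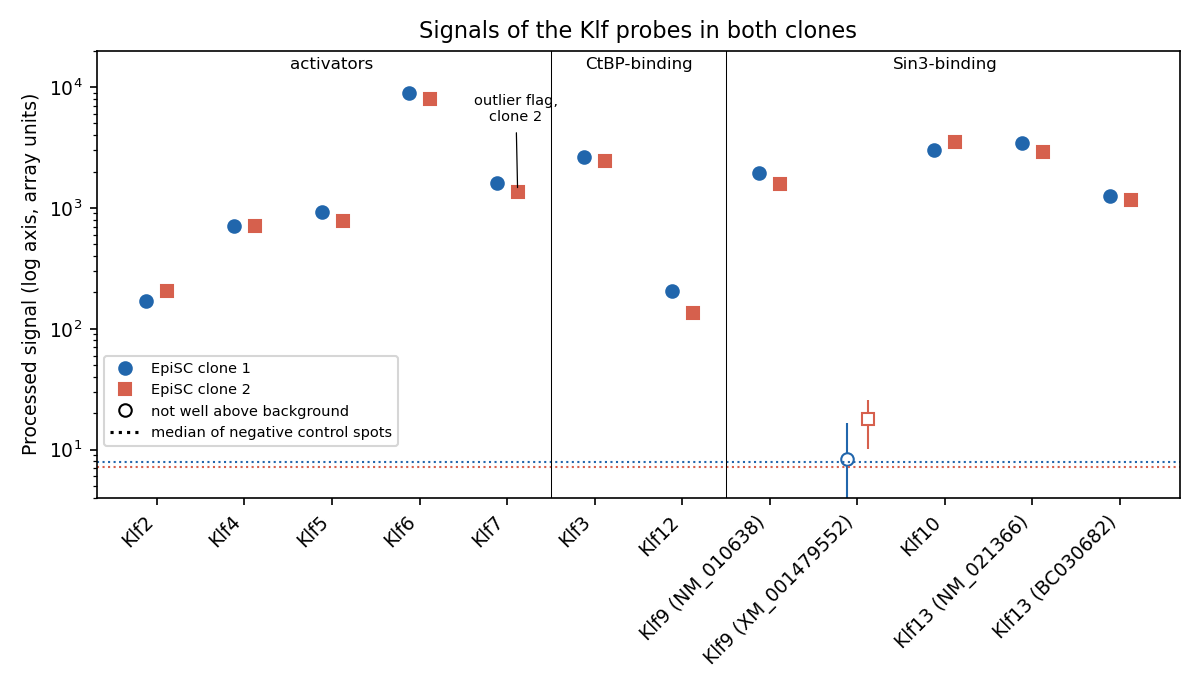
Processed signal (log axis, array units) of the 12 Klf probes in EpiSC clone 1 (circles) and clone 2 (squares), 1 spot each, with the software's spot error as bars that are mostly smaller than the symbols. Dotted lines are the medians of 153 negative control spots (7.96 and 7.13), and the second Klf9 probe (open symbols) is the only one that was not well above background.

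The naive factors Klf2, Klf4 and Klf5 were all detected in both clones. Klf2, a factor that also governs endothelial and T cell quiescence, was read at chr8:74845137-74845196, where clone 1 gave 171 ± 18.96 (spot error) and clone 2 gave 204 ± 21.8. These were 21.5 and 28.6 times the median of the negative control spots. Relative to the 75th percentile of each array, the Klf2 level was -2.28 in clone 1 and -1.85 in clone 2 on the log2 scale. This is a difference of 0.43 ± 0.22 log2, or 1.34-fold, with clone 2 higher.

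Klf4, one of the reprogramming factors, gave 705 ± 70.9 and 715 ± 71.9 in clones 1 and 2, at chr4:55540167-55540226. The scaled difference was 0.20 ± 0.21 log2, within 1 spot error, and a spot beside it differed by at least 2-fold in the same direction. Klf5, which acts in the inner cell mass, the trophectoderm and the gut epithelium, had 922 ± 92.5 in clone 1 and 776 ± 77.9 in clone 2. After scaling it differed by -0.07 ± 0.20 log2, which is within 1 spot error.

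The remaining activators, Klf6 and Klf7, showed no difference beyond the spot error. Klf6, an immediate early gene and tumour suppressor, was read at chr13:5869371-5869430 with 8927 ± 893 in clone 1 and 7912 ± 791 in clone 2. Its scaled levels were 3.43 in both clones. Klf7, a factor of neuronal differentiation, had 1595 ± 159.7 in clone 1 and 1361 ± 136 at the flagged spot in clone 2, a difference of -0.05 ± 0.20 log2 if that spot is kept.

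Of the repressors that bind CtBP, Klf12 was lower in clone 2 and Klf3 was within 1 spot error. Klf12, known as a repressor of the AP-2alpha gene, gave 205 ± 22.0 in clone 1 and 135 ± 15.4 in clone 2, at chr14:100270699-100270758. These were 25.8 and 18.9 times the negative control median. The scaled difference was -0.43 ± 0.23 log2, or 1.35-fold with clone 1 higher. With normexp background correction it was -0.02, so its size depends on the background method. Under the other 5 alternatives it ran from -0.51 to -0.37. Klf3, a repressor in blood, muscle and fat cells, had 2635 ± 264 and 2439 ± 244 at chr5:65221309-65221368. Its difference was 0.06 ± 0.20 log2, and its sign turned under 3 of 6 alternatives.

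A further probe lies 2682 bp from the Klf3 probe on the same strand, at chr5:65223991-65224050, and is labelled only as similar to BKLF, an older name of Klf3. It was chosen after its label was seen. It had 1629 in clone 1 and 1243.5 in clone 2, and differed by -0.21 ± 0.20 log2, about 1 spot error.

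Among the factors that bind Sin3, Klf10 was the only one whose named probe, where measured on both arrays, differed by more than 1 spot error. Klf10, induced early by TGF-beta, had 2999 ± 300.001 in clone 1 and 3509 ± 351 in clone 2, at chr15:38224255-38224314. The scaled levels were 1.85 and 2.25, a difference of 0.40 ± 0.20 log2, or 1.32-fold with clone 2 higher. With normexp correction the difference was 0.20.

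Klf9, a factor induced by glucocorticoid and thyroid hormone, was read by 2 probes that differed in detection. The first, designed on NM_010638 and placed at chr19:23240410-23240469, had 1937 ± 194 in clone 1 and 1575 ± 158 in clone 2. It differed by -0.12 ± 0.20 log2. The second, designed on a predicted transcript and placed 2821 bp further along the same strand at chr19:23243231-23243290, had 8.32 ± 8.32 in clone 1 and 17.9 ± 7.7 in clone 2. Neither spot was called well above background, so it gives no fold.

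Klf13, an activator of the chemokine gene Ccl5 in T cells, was likewise read by 2 probes. The first had 3419.7 ± 342 in clone 1 and 2913 ± 291 in clone 2, a difference of -0.06 ± 0.20 log2. A spot beside it differed by at least 2-fold in the same direction. The second probe, designed on the cDNA BC030682, had 1247 ± 125 and 1171 ± 117 and a difference of 0.08 ± 0.20 log2. Both probes were within 1 spot error.

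The second Klf13 probe runs against the gene. Its coordinates, chr7:71032482-71032541 in mm9, are written in rising order, whereas Klf13 lies on the minus strand in RefSeq and the first probe is written in falling order. Over 19937 probes with a gene strand in RefSeq, coordinate order and gene strand were the same for 99.3%, and 135 probes (0.68%) ran against their gene. Its signal, 157 and 164 times the negative control median, was read on that strand, and which transcript it comes from was not tested.

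A further probe for Klf13 is on the array under an Ensembl transcript name and was chosen after its label was seen. It covers chr7:71036675-71069606, a span of 32932 bp that crosses a splice junction, in the direction of the gene. It was well above background in clone 1 only, with 97.1 against 35.4 in clone 2. By the undetected spot's own level this is 2.43-fold higher in clone 1, with a spot error of 0.39 log2, and it is not a lower bound. The difference was -1.28 log2 with quantile normalization, -1.28 in the deposited values and -1.27 with median scaling. With normexp correction it was 0.06 log2, and there the first percentile of the signal was 69.3 in clone 1 and 139 in clone 2. A spot beside this probe was also at least 2-fold higher in clone 1. The first Klf13 probe and the second, which runs against the gene, differed by less than 1 spot error.

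Short stretches of the probes behind the largest differences and behind the unlike detection of Klf9 are given here, each the first 30 bases, 5′ to 3′:
Klf2 probe: tgtatataagactatgaccgattgtatttc
Klf10 probe: catatctcagaggtttctgacatgcaaact
Klf12 probe: gtgactgcctagaaacgttgctgagatatt
Klf9 first probe: gagcaaacaattttaacttcatgaatttgt
Klf9 second probe: gaccagggggcttttggatttcaggtttat

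None of the 10 measured Klf probes differed by 2-fold between clones, beside 2.79% of 21497 measured probes (1.6% higher in clone 2 and 1.19% higher in clone 1). None reached 1.5-fold, beside 9.58%. Of the 10, 6 were higher in clone 2 and 4 in clone 1, beside 46.4% higher in clone 1 over all. The 6 include the second Klf13 probe, which runs against the gene. The median difference of the 10 was 0.03 log2, beside 0.02 for all measured probes. The Klf differences ran from -0.43 to 0.43 log2, with an SD of 0.25 over the 10 probes, beside 0.42 over all measured probes. Klf2, Klf10 and Klf12 exceeded 1 spot error, 3 of 10 beside 43.1% of all probes. No Klf probe exceeded 2 spot errors, beside 16.1%. The spot error is dominated by a fixed share of the signal and is wider than the scatter of repeated spots. Over 265 and 269 detected probes with at least 5 spots, the median SD was 0.07 log2 in clone 1 and 0.08 in clone 2, which makes 0.11 for a difference. Against that measure Klf2, Klf10 and Klf12 differed by 4.02, 3.78 and 4.07 times and Klf4 by 1.85 times. Neither measure holds the spread between cultures of a clone. Larger absolute differences than that of Klf12 were found for 17.4% of measured probes, than that of Klf2 for 17.7% and than that of Klf10 for 19.7%. Among probes within 0.5 log2 of the same level, 23.8% of 2782 differed more than Klf12, 23.3% of 2734 more than Klf2 and 12.4% of 1987 more than Klf10.

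**Figure D2:**
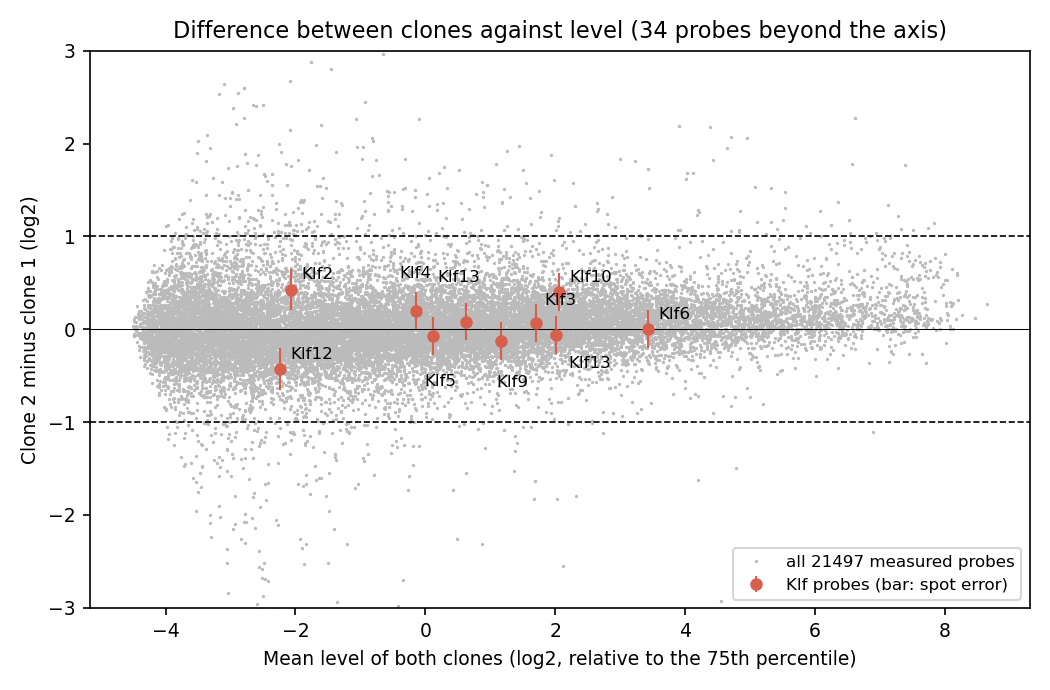
Difference between clones (clone 2 minus clone 1, log2) against the mean level of both clones (log2, relative to the 75th percentile) for 21497 measured probes (grey) and the 10 Klf probes measured on both arrays (red, bars are 1 spot error), with 34 probes beyond the axis. All Klf probes lie between the dashed 2-fold lines, with Klf2 and Klf10 highest and Klf12 lowest.

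Among the 10 measured Klf probes, the choice of processing turned the sign of small differences only. It moved Klf12 and Klf10 most in size, to -0.02 and 0.20 log2 with normexp correction. The Klf13 probe under an Ensembl name, which is not among the 10, went from -1.28 to 0.06 log2 with that correction. Klf2, Klf4 and Klf10 were higher in clone 2 and Klf12, Klf9 (first probe), Klf5 and Klf13 (first probe) higher in clone 1 under all 6 alternatives in the plot of Klf differences by processing. The sign turned for Klf6 under 4, for Klf3 under 3 and for the second Klf13 probe under 1 of them. In the authors' deposited table, Klf2 was 151 and 212, Klf10 2937 and 3697, and Klf12 183 and 140.2 in clone 1 and clone 2.

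**Figure D3:**
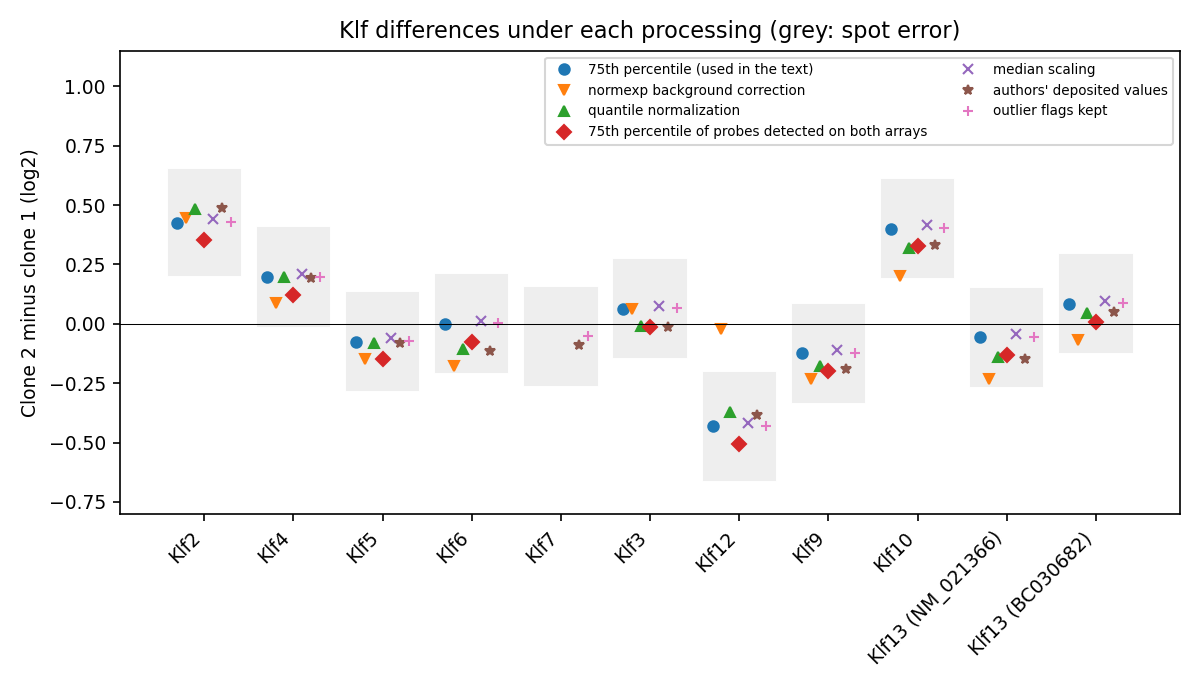
Difference between clones (clone 2 minus clone 1, log2) of 11 Klf probes under the processing used in the text and 6 alternatives, with 1 spot error around the value used as a grey box (the undetected Klf9 probe is left out, and Klf7 has values only where its flagged spot is kept). The 1 point outside its box is Klf12 with normexp correction, at -0.02.

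Promoter windows from RefSeq (GRCm38.p6) were found for 8 of the 10 members, and Klf5 and Klf10 had none there. In the 250 bases before the start, the GC content ran from 48.0% for Klf12 to 78.4% for Klf3, beside a median of 52.4% over 32851 windows. The GC box (GGGCGG, either strand) was present in 6 of the 8, beside 32.7% of all windows. The CACCC box (CACCC, either strand), a site of Klf binding, was present in 6 of 8, beside 52.0%. A GC box and a CACCC box may share bases. CCAAT (either strand) was present in 3 of 8, beside 33.8%, and TATAAA (either strand) in 1 of 8 (Klf12), beside 12.4%. The Klf12 match is the reverse form, TTTATA, and its window holds no TATAAA in the direction of the gene. The Klf4 window held 4 GC boxes and 32 CpG dinucleotides, that of Klf2 held 2 and 29, and that of Klf12 held 0 and 6. The Klf12 window belongs to 1 start inside the gene's RefSeq span, and other starts were not used here. A match of letters is not a bound site.

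Of 7 other Klf genes, 3 were detected in both clones (Klf8, Klf11 and Klf16), beside 61.3% of all named genes. Klf16, a Sin3-binding factor, had levels of -1.32 in clone 1 and -0.82 in clone 2, 1.41-fold higher in clone 2. Klf15 and Klf17 were detected in clone 2 only, close to the lowest level of any detected probe there (-4.57). Klf15 was higher there by 1.02-fold, the plain ratio to its undetected spot in clone 1, and Klf17 by at least 1.147-fold. Klf1 and Klf14 were below that call in both clones.

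The Sp factors share the zinc finger fold and GC-box binding. They were detected in both clones for 7 of 9 genes, beside 61.3% of all named genes. Sp7, the osteoblast factor, and Sp9 were not well above background. Sp1, a ubiquitous activator, had levels of 2.36 and 2.28. Sp5 had -3.31 in clone 1 and -2.50 in clone 2, 1.75-fold higher in clone 2, and Sp4 was 1.40-fold higher in clone 1. Sp8 differed by -0.46 log2 at its brighter probe, and its other probe, detected in clone 2 only, was at least 1.98-fold higher in clone 2. At the brightest probe 0 of these 7 genes reached 2-fold, beside 2.55% of measured genes (1.52% higher in clone 2 and 1.03% higher in clone 1), and their median was -0.09 log2, beside 0.05 over all genes. With normexp correction that median was 0.24, so no direction is read.

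Corepressors and enzymes that act with Klf proteins were detected throughout, 14 of the 14 with a value out of 15 listed, beside 61.3% of all named genes. Ctbp1 and Ctbp2, the partners of Klf3 and Klf12, were at 4.44 and 3.46 in clone 1 and at 4.76 and 3.12 in clone 2, opposite in direction by 1.25-fold and 1.26-fold. Sin3a was at 1.44 in both clones. The ubiquitin ligase genes Wwp1 and Fbxw7, whose products mark Klf2 and Klf5 for breakdown, differed by 0.03 and 0.11 log2. None of the 14 reached 2-fold, beside 2.55% of all measured genes, and the median was 0.10 log2.

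Genes commonly cited as Klf targets were higher in clone 2 for 11 of 14 measured, beside 57.1% of all measured genes, with a median of 0.32 log2 and none at 2-fold. Over the scalings and the deposited values, the share of all measured genes higher in clone 2 ran from 45.6% to 61.6%. S1pr1 and Thbd, endothelial targets of Klf2, were 1.36-fold and 1.39-fold higher in clone 2. Of 6 listed endothelial markers, only Pecam1 and Kdr were detected in both clones. At their brightest probes Pecam1 and Kdr were also higher in clone 2, by 1.62-fold and 1.72-fold. Cdh5, Tek, Emcn and Tie1 missed the detection call on both arrays. The other Kdr probe missed it too, at levels of -6.25 in clone 1 and -6.10 in clone 2. Of 15 fibroblast markers 12 were higher in clone 2 too, and between 9 and 12 under the other scalings and the deposited values. Cdkn1a, a cell cycle inhibitor that Klf4 activates and that p53 also drives, was 1.42-fold higher, and Pdgfa 1.63-fold. Lgals3 was 1.35-fold higher in clone 2. Alpl was 1.203-fold higher in clone 1. Ccl5, the target of Klf13, had a difference of 0.17 log2. The median of this list was between 0.18 and 0.33 log2 under the other scalings and the deposited values, with 11 of 14 higher in clone 2 in each. These scalings of the list, other than normexp, were chosen after seeing the data, and the median over all genes lay between -0.03 and 0.09 log2 under them. Tagln of this list is also a fibroblast marker. The list was not split into genes that Klf proteins activate and genes that they repress, so its direction is not read as Klf activity. The genes are also driven by other factors, and the part of Klf proteins in their levels was not tested.

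In the naive circuit around Klf2, Klf4 and Klf5, 6 of 10 genes were detected in both clones, near the 61.3% of all named genes. Tbx3 and Tfcp2l1 were 1.47-fold and 1.67-fold higher in clone 2, and Tfcp2l1 was higher there by its second probe too (0.49 log2). Esrrb, Stat3 and Socs3 differed by -0.11, -0.06 and 0.11 log2. Prdm14, Nr0b1, Zfp42 and Dppa3 were below the detection call in both clones.

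**Figure D4:**
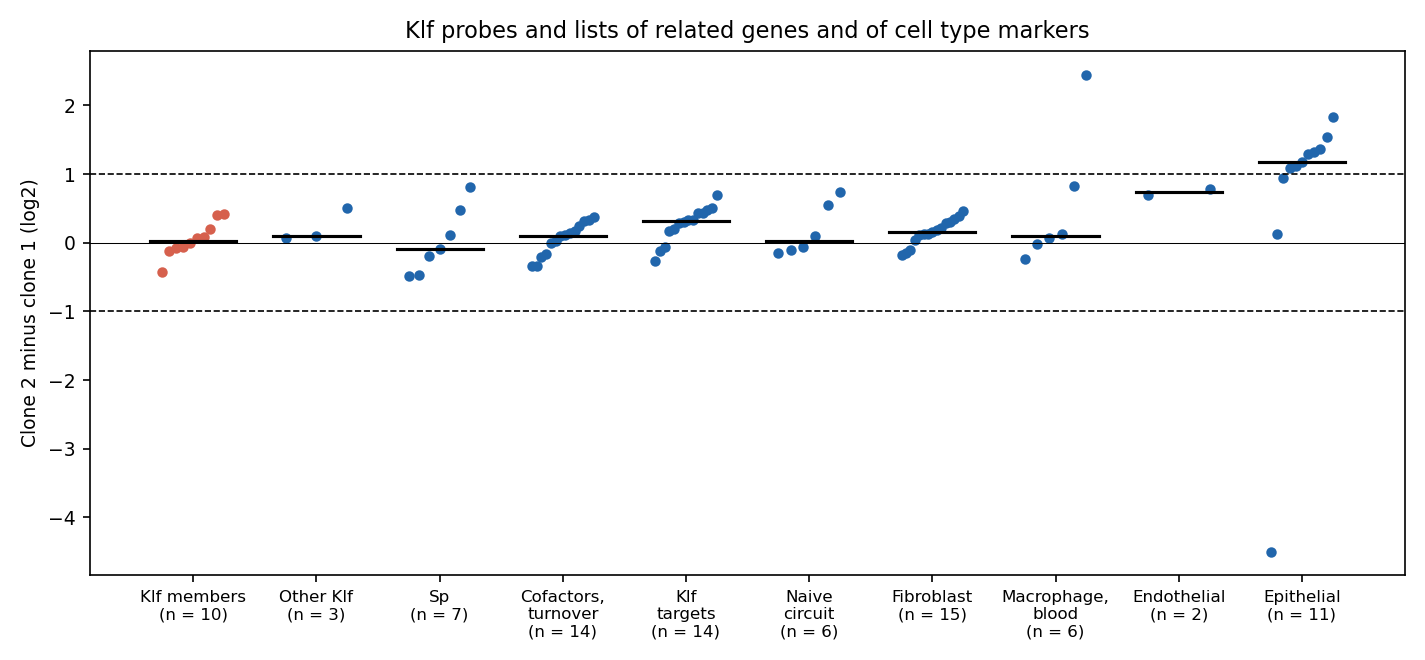
Difference between clones (clone 2 minus clone 1, log2) of the 10 measured Klf probes (red) and of genes detected on both arrays from lists of related genes and of cell type markers (blue, brightest probe per gene), with list medians as black bars and 2-fold as dashed lines. Genes beyond 2-fold are found on the epithelial list (9 of 11 measured) and the macrophage and blood list (1 of 6, Cd3e), beside 2.55% of all measured genes. The lists were chosen with earlier results of these data known.

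Markers of the labelled cell type were present. All 6 pluripotency and all 8 primed epiblast genes were detected in both clones, beside 61.3% of all named genes. Some markers of other cells that express Klf genes were detected as well. All 15 fibroblast markers with a value were detected, with a summed signal of 180.4 times the 75th percentile in clone 1 and 201 in clone 2. The highest levels among them in clone 1 were those of Fn1 (5.89), Vim (4.94) and Col1a2 (4.86). Probes differ in how well they bind, so the sums of different lists are not compared. Col1a1 had no unflagged value in clone 2. Macrophage and blood markers were detected in both clones for 6 of 8 genes, near the 61.3% of all named genes, with a summed signal of 3.49 and 4.95. The T cell gene Cd3e was 5.46-fold higher in clone 2. Ptprc was detected in clone 1 only and Cd68 in clone 2 only. Of 6 endothelial markers only Pecam1 and Kdr were detected in both clones, beside the same 61.3%. Cdh5, Tek, Emcn and Tie1 were not well above background. In a bulk sample, a small number of cells with a high level and many cells with a low level cannot be told apart. The part of fibroblasts, blood cells or endothelial cells in the Klf signals was not tested. Of 11 measured epithelial markers 9 differed by 2-fold, beside 2.55% of all measured genes. The list was chosen with earlier results of these data known, so this share is not independent of them. Of the 9, 8 were higher in clone 2 and Krt19 was higher in clone 1. Cldn4 was detected in clone 2 only. With normexp correction 5 of 11 differed by 2-fold, beside 1.54% of measured probes. Klf4 and Klf5, which act in epithelia, differed by less than 1 spot error.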

How the data were processed

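Total RNA of 2 EpiSC clones was labelled with Cy3 from 0.2 ug, per the labels' protocols, and each clone was read on 1 Agilent array of design 026655 with Feature Extraction 11.0.1.1, per the file headers. The values are processed signal intensities after the software's spatial and multiplicative detrending, per the file headers. Detection and outlier calls are the software's flags as deposited. The authors' deposited table of normalized intensity has no stated method, and its column medians were 65.8 in both clones. Log2 signals of unflagged spots were averaged per probe and the array's 75th percentile was subtracted (signals of 830 and 736). A gene in a list is given by its brightest probe, and its name comes from RefSeq accessions or symbols (30197 of 39413 probes named). Bounds use the higher of the dim spot's own level and the lowest detected level of its array. Where the dim spot's own level was the higher, the value is a plain ratio and not a lower bound.

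A difference counts as 2-fold when the probe was well above background on both arrays. No test between clones was made, since there is 1 array each, and the number of arrays limits the precision. The members, the lists and the rule for naming genes of the related lists (those at least 2-fold apart, those detected in 1 clone and examples) were chosen with earlier results of these data known. Other list examples and the cell type markers named singly were chosen after their values were seen. The script that counts 2-fold probes was tested on simulated data. Positions are on mm9, per the file headers. Python 3.11.15, R 4.3.3 and limma 3.58.1 were used.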

Additional observations from a re-analysis of the deposited data

How the results depend on the processing

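No paired analysis was possible because each clone has 1 array and the shared replicate number covers a single pair. The count of Klf genes detected on both arrays was 9, and 10 when flagged spots were kept. The count of Klf probes at least 2-fold apart was 0 in the processing used and under the scaling, background, deposited-value, flag and 1.5-fold alternatives, and 1 without a filter on dim probes, which is the second Klf9 probe. The median difference of the Klf probes was 0.03 log2 in the processing used and between -0.08 and 0.06 under 9 alternatives. Its sign thus depended on the processing, and no direction is read. Of 68 single-probe values of the 12 Klf probes under alternatives, 67 moved by less than 1 spot error and 8 changed sign, all of them small. Klf12 with normexp correction was the exception. That correction left a higher floor in clone 2 (first percentile of the signal 139) than in clone 1 (69.3). It called 332 probes 2-fold apart in place of 599. Without a filter on dim probes 2662 were 2-fold apart, and at 1.5-fold 2059. Dim probes such as Klf2 and Klf12 have wider errors than bright ones.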
